A study of Mus musculus with 16 samples.

Results

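The 10 genes Fos, Fosb, Jun, Junb, Jund, Egr1, Atf3, Ier2, Dusp1 and Hspa1a were measured in macrophages and monocytes sorted from mouse sarcomas. They were taken by symbol from the 30819 gene rows of the deposited expression matrix, as genes known to be switched on when tissue is cut, warmed and digested into single cells. Of the 10 genes, 9 passed the filter on low values and were tested, and Jund did not pass. Each library is the RNA of 1 sorted population from the tumour of 1 mouse.

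Immediate early genes are transcribed within minutes of a stimulus from promoters that are already poised, without new protein synthesis. Kinases of the ERK, JNK and p38 families activate the factors that sit on these promoters, and the products are mostly transcription factors that start a later wave of transcription, together with phosphatases that shut the kinases off again. Heat and unfolded protein act through a separate factor, HSF1, on genes for chaperones such as Hsp70. In macrophages and monocytes the same genes respond to microbial products, cytokines and adhesion, so their RNA after a warm enzyme digestion does not by itself tell the tumour's own signals from those of the preparation.

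The study asked how loss of complement component C3 in the host alters tumour-infiltrating myeloid cells. MN/MCA1 cells, a transplantable mouse fibrosarcoma line, were injected under the skin of the flank, and tumours were taken on day 21. They were dissociated mechanically and with type IV collagenase at body temperature before sorting, in all groups alike. The 4 groups were macrophages of C3-/- mice, macrophages of wild-type mice, monocytes of C3-/- mice and monocytes of wild-type mice, with 4 mice each and 16 libraries in all. Every mouse was on the C57BL/6J strain, and the labels give no ages. Macrophages were sorted as CD45+ CD11b+ F4/80+ cells without Ly6G, CD11c or Ly6C, and monocytes as CD45+ CD11b+ Ly6C+ cells without Ly6G, CD11c or F4/80. The titles number the mice 6 to 9 (C3-/-) and 1 to 4 (wild type), and each mouse gave both cell types. No unstimulated or undigested sample was analysed here, so the values show differences between groups and not how far the digestion raised any gene.

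The libraries held 18689427 to 29049268 reads, with 17850 to 19654 genes detected. Levels are given as normalized reads, which are reads per gene divided by the size factor of the library. Differences are given on the deposited log2 scale, a regularized logarithm that draws differences together, and beside them the ratio of mean normalized reads. C3 itself averaged 1234 ± 168 normalized reads in C3-/- macrophages and 4008 ± 858 in wild-type macrophages, and 4925 ± 288 in C3-/- monocytes and 15157 ± 718 in wild-type monocytes (SD, n = 4 mice each). The C3-/- means were 30.8% and 32.5% of the wild-type means, and no C3-/- library reached a wild-type library of its cell type, so the genotype labels hold. C3 RNA was still counted in every C3-/- library. The sort labels held for Ly6C and F4/80. Ly6c2 lay between 1.64 and 19.1 normalized reads in macrophages, against 11307 to 19064 in monocytes. Adgre1, which encodes F4/80, lay between 22023 and 28942 in macrophages, against 5448 to 8646 in monocytes. Both gates excluded CD11c, yet RNA of its gene Itgax was read in every library. It had 4115 to 6726 normalized reads in macrophages and 1926 to 4781 in monocytes. Of the macrophage marker list 8 of 9 tested genes were higher in macrophages in both genotypes, and of the monocyte list 7 of 7 were lower. In bulk RNA, fewer cells of a type and less RNA per cell cannot be told apart. P-values weigh a difference against the spread between the mice within the groups. The main fits do not pair the libraries of a mouse.

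All 9 measured genes were expressed in every library, and 7 of them (all but Egr1 and Fosb) ranked within the first 276 of 30771 genes in each group when levels were compared per length. Together the 10 genes took 0.986% ± 0.161 of reads in C3-/- macrophages and 1.10% ± 0.0972 in wild-type macrophages, and 1.72% ± 0.362 in C3-/- monocytes and 2.01% ± 0.284 in wild-type monocytes (SD, n = 4 each). The share was higher in each of the 8 monocyte libraries, at 1.37% to 2.40%, than in any macrophage library, at 0.787% to 1.18%. Between genotypes the shares overlapped in both cell types. On this scale, mean normalized reads per kilobase of exon, Fos ranked 24 in C3-/- macrophages, 17 in wild-type macrophages, 16 in C3-/- monocytes and 10 in wild-type monocytes. Dusp1 ranked 40, 32, 26 and 18 in the same order of groups, and Junb 38, 38, 27 and 23. Fosb was the lowest of the 9, at rank 2841 in C3-/- macrophages, 3646 in wild-type macrophages, 5615 in C3-/- monocytes and 6278 in wild-type monocytes. Jund, another Jun protein, had 0 to 4 reads in any library. Its single exon on chromosome 8 (GRCm38, 70698949 to 70700616, plus strand) is overlapped by exons of the antisense gene Gm11175, and the libraries do not mark strand. Whether the counting left these reads unassigned was not tested, and Jund gives no measurement here.

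**Figure D1:**
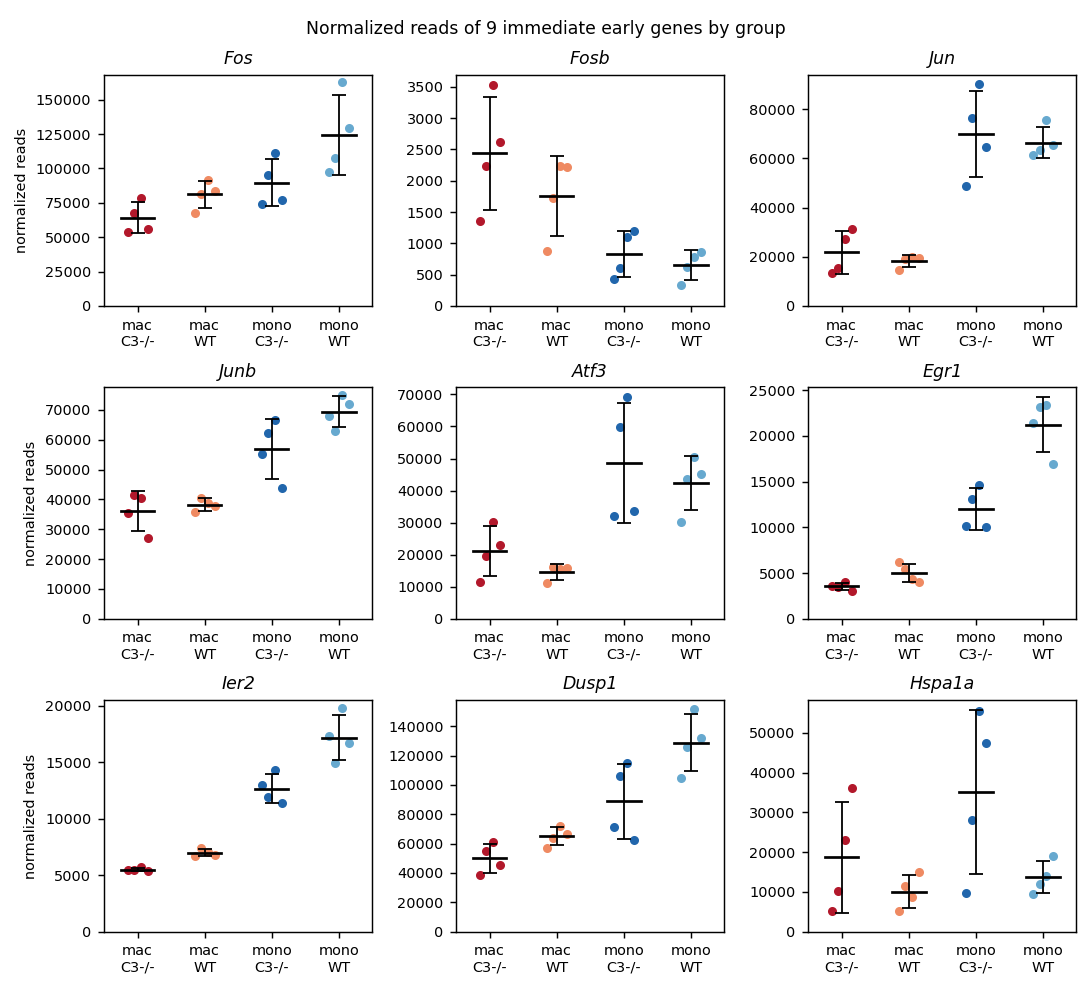
Normalized reads (axes from 0) of the 9 measured genes in each library, with C3-/- left of wild type (WT) in macrophages (mac) and then in monocytes (mono); points are mice, bars the mean and SD of 4 mice. Jun, Junb, Atf3, Egr1, Ier2 and Dusp1 sit higher in monocytes and Fosb higher in macrophages, and the points of Hspa1a scatter most in the C3-/- groups.

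Macrophages were set against monocytes within each genotype, in a main fit that did not pair the libraries of a mouse. In C3-/- tumours 7 of the 9 tested genes were lower in macrophages and 1 was higher (limma, Benjamini-Hochberg adjusted p under 0.05), where 60.5% of the 12772 genes tested were called in either direction, 29.6% lower and 31.0% higher. In wild-type tumours 7 were again lower and 1 higher, where 63.4% of 12769 genes were called, 31.7% each way. With the mouse as a block, which pairs those libraries, all 9 genes were called in each genotype. Of all genes tested, 7773 were then called in C3-/- mice and 8399 in wild-type mice. The median log2 difference of the 9 genes was -0.73 in C3-/- mice and -0.71 in wild-type mice, beside 0.00 and -0.01 over all genes tested. Macrophage and monocyte libraries did not overlap for 7 of the 9 genes in C3-/- mice and 8 of 9 in wild-type mice, against 55.2% and 57.6% of all genes. Most genes of the transcriptome differed between the cell types, so a call alone says little of these 9, and the list as such was not tested.

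Fos encodes the founding Fos protein, which pairs with a Jun protein to form the AP-1 factor. It had 53997, 67938, 78273 and 56005 normalized reads in macrophages of C3-/- mice 6, 7, 8 and 9, against 74418, 95353, 111090 and 77141 in the monocytes of the same mice. Macrophages of wild-type mice 1, 2, 3 and 4 had 67881, 81461, 91453 and 83479, against 97554, 107705, 162798 and 129763 in their monocytes. Each mouse had less Fos in its macrophages, while the ranges of the cell types overlapped in C3-/- mice only. The log2 difference was -0.34 ± 0.107 (SE) in C3-/- mice, 71.6% of the monocyte mean (limma adjusted p = 0.0162), and -0.43 ± 0.113 in wild-type mice, 65.1% of the monocyte mean (adjusted p = 0.0070). The C3-/- call was lost without macrophages of mouse 9 (adjusted p = 0.0514) and with no filter on low values (adjusted p = 0.0572). It held with the mouse as a block, which compares both libraries of the same animal (limma adjusted p = 0.000131). Fos lies on chromosome 12 (GRCm38, 85473890 to 85477273, plus strand).

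Fosb, another Fos protein, was the one gene of the 9 that was higher in macrophages. It had 1353, 2234, 3536 and 2616 normalized reads in macrophages of C3-/- mice 6 to 9, against 436, 603, 1093 and 1194 in their monocytes. Wild-type macrophages had 871, 1732, 2237 and 2213 in mice 1 to 4, against 336, 620.0, 786 and 866 in monocytes. Mouse 1 was lowest in wild-type macrophages, and its 871 only just passed the highest wild-type monocyte library. The log2 difference was 1.14 ± 0.301 in C3-/- mice, 2.93-fold in mean reads (limma adjusted p = 0.0139), and 1.00 ± 0.266 in wild-type mice, 270.5% of the monocyte mean (adjusted p = 0.0108).

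Jun, the main DNA-binding partner of Fos, showed the opposite order. It had 13354, 15554, 27371 and 31224 normalized reads in macrophages of C3-/- mice 6 to 9, against 48858, 76395, 90284 and 64596 in their monocytes. In wild-type mice 1 to 4 macrophages had 14500.5, 19023, 19885 and 19623, against 61334, 63278, 75649 and 65530.1 in monocytes. No macrophage library came near a monocyte library, and macrophages of C3-/- mice 8 and 9 stood above the other macrophage libraries. The log2 difference was -1.24 ± 0.222 in C3-/- mice, 31.2% of the monocyte mean (limma adjusted p = 0.00166), and -1.33 ± 0.0742 in wild-type mice, 27.5% (adjusted p = 5.11e-08). Junb, a Jun protein that can restrain Jun at some promoters, differed less. Its macrophage libraries spanned 27027 to 41485 normalized reads in C3-/- mice, against 43695 to 66556 in monocytes, and 35699.8 to 40613 in wild-type macrophages, against 62991 to 75144 in monocytes. Its macrophage mean was 63.4% of the monocyte mean in C3-/- mice (log2 -0.47 ± 0.112, limma adjusted p = 0.00356) and 55.1% in wild-type mice (-0.62 ± 0.0523, adjusted p = 1.35e-06). The exon of Jun on chromosome 4 is overlapped on the other strand by Junos, and exons of Junb on chromosome 8 by Prdx2. Junos had 237 to 593 and Prdx2 2771 to 3547 normalized reads in any library, both below the lowest values of Jun and Junb. Exons of Dusp1 on chromosome 17 are also overlapped on the other strand, by Ergic1, whose level was not read here.

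Egr1, a zinc finger factor downstream of ERK and the serum response factor, had the largest cell type difference among the 9 genes in wild-type mice. C3-/- macrophages had 3603, 3440.0, 4029 and 3064 normalized reads in mice 6 to 9, against 10196, 13116, 14678 and 10071 in monocytes. Wild-type macrophages had 6233, 5478, 4367 and 4047 in mice 1 to 4, against 21466, 23181, 23396 and 16917 in monocytes. No pair of the 4 groups overlapped, and levels were lowest in C3-/- macrophages, then in wild-type macrophages, then in C3-/- monocytes, and highest in wild-type monocytes. The macrophage mean was 29.4% of the monocyte mean in C3-/- mice (log2 -1.23 ± 0.0923, limma adjusted p = 4.64e-07) and 23.7% in wild-type mice (-1.52 ± 0.107, adjusted p = 1.25e-06).

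Atf3, a leucine zipper factor of the ATF family that restrains inflammatory genes in macrophages, had 11456, 19702, 30140.2 and 23176 normalized reads in macrophages of C3-/- mice 6 to 9, against 32009, 59801, 69275 and 33778 in monocytes. Wild-type macrophages had 11078, 16188, 15449 and 15954 in mice 1 to 4, against 30324, 43567, 50417 and 45190.3 in monocytes. Each mouse had more Atf3 in its monocytes, but the highest C3-/- macrophage library lay close to the lowest C3-/- monocyte library. The log2 difference was -0.87 ± 0.272 in C3-/- mice, 43.4% of the monocyte mean (limma adjusted p = 0.0268), and -1.08 ± 0.121 in wild-type mice, 34.6% (adjusted p = 3.76e-05). The C3-/- call was lost with no filter (adjusted p = 0.0717), without macrophages of mouse 7 (0.0573), and without monocytes of mouse 7 (0.0675) or mouse 8 (0.0568). With the mouse as a block it held (limma adjusted p = 0.000993).

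Ier2, a small nuclear protein induced with the other immediate early genes, had the smallest SD of the 9 genes in all groups but wild-type monocytes, where those of Junb and Jun were smaller. It spanned 5394 to 5709.5 normalized reads in C3-/- macrophages, against 11373 to 14271 in C3-/- monocytes, and 6737 to 7363 in wild-type macrophages, against 14966 to 19755 in wild-type monocytes. The macrophage mean was 43.5% of the monocyte mean in C3-/- mice (log2 -0.85 ± 0.0582, limma adjusted p = 1.12e-07) and 40.7% in wild-type mice (-0.94 ± 0.0593, adjusted p = 1.36e-07). As with Egr1, no pair of the 4 groups overlapped and their order was the same. Dusp1, the nuclear phosphatase that switches off p38 and JNK, had 38709.8, 55088, 61103 and 45407 normalized reads in macrophages of C3-/- mice 6 to 9, against 71512, 106060, 115071 and 62621 in monocytes. Wild-type macrophages had 57075, 64162, 72338 and 66667 in mice 1 to 4, against 105063, 125672, 152037 and 131976 in monocytes. The lowest C3-/- monocyte library, that of mouse 9, stood just above the highest C3-/- macrophage library. The macrophage mean was 56.4% of the monocyte mean in C3-/- mice (log2 -0.57 ± 0.152, limma adjusted p = 0.00891) and 50.6% in wild-type mice (-0.71 ± 0.0807, adjusted p = 1.58e-05). The group means of Fos and Dusp1 followed the order of Egr1 and Ier2, but each pair of neighbours in that order overlapped.

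The windows upstream of Fos and Dusp1, which take the most reads per length in wild-type monocytes among the 9 genes, are printed to show the letters TGACG, the core of the cyclic AMP response element, in both and the full element in Dusp1 alone. Each is the 250 bases before the RefSeq transcription start (GRCm38.p6), 5′ to 3′ on the strand of the gene. Capitals mark the core letters TGACG and the TATA box TATAAA in Fos (chr12:85473640-85473889, plus strand), and the full palindrome TGACGTCA in Dusp1 (chr17:26508473-26508722, minus strand).
Fos: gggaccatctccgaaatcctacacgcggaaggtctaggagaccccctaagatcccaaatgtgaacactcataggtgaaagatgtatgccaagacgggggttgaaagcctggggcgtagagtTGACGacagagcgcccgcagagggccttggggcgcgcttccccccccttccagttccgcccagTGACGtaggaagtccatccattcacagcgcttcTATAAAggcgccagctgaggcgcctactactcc
Dusp1: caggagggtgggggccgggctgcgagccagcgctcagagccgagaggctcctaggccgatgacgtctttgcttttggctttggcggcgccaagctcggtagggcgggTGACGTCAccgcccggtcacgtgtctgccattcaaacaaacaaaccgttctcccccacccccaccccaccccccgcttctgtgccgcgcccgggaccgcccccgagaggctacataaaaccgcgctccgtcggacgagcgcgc
In Fos the TGACG cores end 125 and 62 bases before the start and TATAAA ends 28 bases before it. In Dusp1 the palindrome lies 143 to 136 bases before the start, contains TGACG on each strand, and is accompanied by a lower-case TGACG 191 to 187 bases before the start. Windows were available for 8 of the 10 genes, and on either strand Fosb, Junb and Atf3 held TGACG once each. Among 32851 RefSeq windows of this length, 1.55% held TGACGTCA and 17.8% held TGACG on either strand, and 7.59% held TATAAA on the strand of the gene. The AP-1 letters TGANTCA, present in 6.75% of windows, were found in none of the 8. For Junb and Jund the bases after the window did not match an annotated transcript of the gene. The Jund window ends at 70697738, while its annotated exon starts at 70698949. A match describes letters in the window and is not evidence of a bound site.

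Hspa1a encodes the inducible Hsp70 chaperone, and its level varied more between mice than between cell types. It had 5159, 10189, 23176 and 36148 normalized reads in macrophages of C3-/- mice 6 to 9, against 9633, 28032, 55441 and 47467 in their monocytes. Wild-type macrophages had 5284, 11379, 8798 and 14945 in mice 1 to 4, against 9559, 12101, 14052 and 19069.9 in monocytes. The macrophage library was the lower in each of the 8 mice, but the ranges of the cell types overlapped in both genotypes. The log2 difference was -0.73 ± 0.589 in C3-/- mice (limma adjusted p = 0.327) and -0.34 ± 0.229 in wild-type mice (adjusted p = 0.226). With the mouse as a block, which compares both libraries of the same animal, the SE fell to 0.127 and 0.0792 and both differences passed (adjusted p = 0.00281 in C3-/- mice and 0.00685 in wild-type mice).

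**Figure D2:**
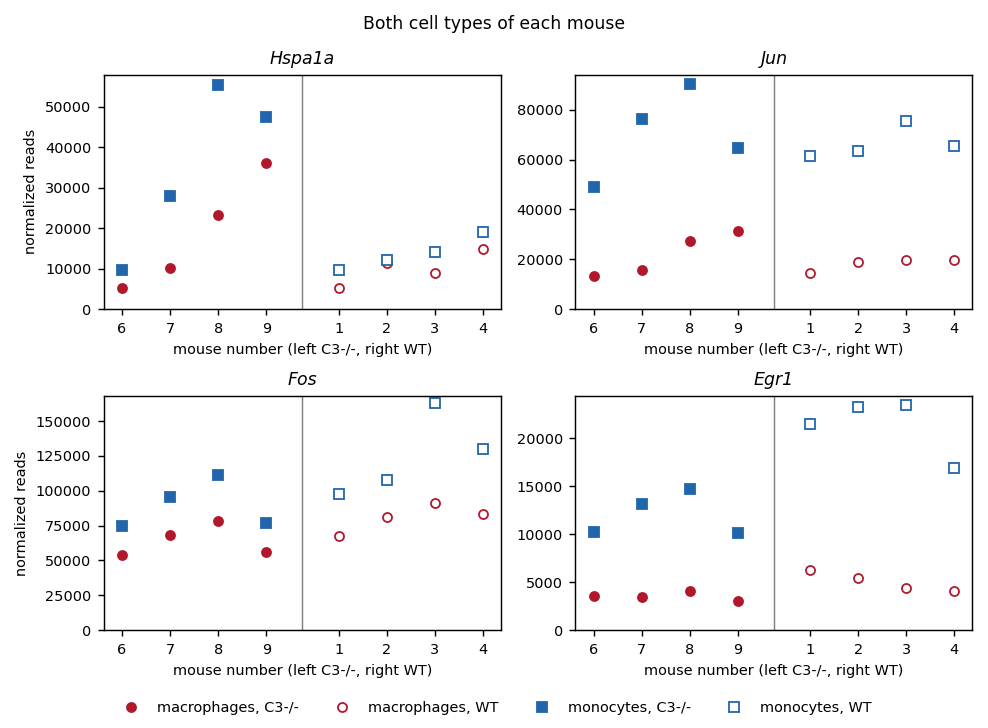
Normalized reads (axes from 0) of Hspa1a, Jun, Fos and Egr1 in macrophages (circles) and monocytes (squares) of each mouse, with C3-/- mice filled at left and wild-type mice open at right. In Hspa1a the spread between C3-/- mice exceeds the gap between cell types, while in Jun and Egr1 no macrophage library reaches a monocyte library.

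The near-copy Hspa1b is the neighbour of Hspa1a on chromosome 17, and both are single-exon genes on the minus strand (GRCm38, 34969190 to 34972156 for Hspa1a and 34956436 to 34959238 for Hspa1b). Of all 75-base windows of the Hspa1a transcript 52.7% occur unchanged in Hspa1b, and 55.8% the other way, so how reads were split between the genes is uncertain. The reads of Hspa1a were 0.561 to 0.776 times those of Hspa1b in the 16 libraries. Hspa1b had 8471, 16714, 35887 and 56877 normalized reads in macrophages of C3-/- mice 6 to 9, against 9116, 20285, 13312 and 24275 in macrophages of wild-type mice 1 to 4. In monocytes it had 12551, 39846, 79598 and 71677 in C3-/- mice, against 13880.4, 17286, 18099 and 27285 in wild-type mice. The order of the C3-/- mice was the same for both genes within each cell type. The exon of Hspa1a is also overlapped on the other strand by Gm20481.
The upstream windows of both genes are printed because they are nearly identical (RefSeq, GRCm38.p6, minus strand, 250 bases before the start, 5′ to 3′; chr17:34972157-34972406 for Hspa1a and chr17:34959239-34959488 for Hspa1b). Capitals mark a heat shock element, here the letters GAANNTTC.
Hspa1a: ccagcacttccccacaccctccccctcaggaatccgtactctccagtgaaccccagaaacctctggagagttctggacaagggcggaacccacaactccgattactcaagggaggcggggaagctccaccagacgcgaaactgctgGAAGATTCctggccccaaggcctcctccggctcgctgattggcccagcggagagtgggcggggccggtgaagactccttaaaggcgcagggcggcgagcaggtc
Hspa1b: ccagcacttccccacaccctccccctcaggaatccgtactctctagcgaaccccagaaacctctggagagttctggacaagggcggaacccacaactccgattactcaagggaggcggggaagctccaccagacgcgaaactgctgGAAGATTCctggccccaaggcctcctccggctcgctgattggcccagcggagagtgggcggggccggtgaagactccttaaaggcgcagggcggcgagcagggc
The windows differed at 3 of 250 bases, and the element lay 104 to 97 bases before the start in both. It was found in 6.69% of the 32851 windows, and in 12.8% counting the form TTCNNGAA too. Among the other members with a window, Jun held GAANNTTC as well, 128 to 121 bases before its start.

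C3-/- mice were then set against wild-type mice within each cell type. In macrophages 1 of the 9 tested genes was lower in C3-/- mice, Ier2, and none was higher, where limma called 5.70% of the 12568 genes tested, 3.13% lower and 2.57% higher. In monocytes 2 of 9 were lower, Egr1 and Ier2, and none was higher, where 3.32% of 12867 genes were called, 1.92% lower and 1.40% higher. The median log2 difference of the 9 genes was -0.07 in macrophages and -0.22 in monocytes, beside 0.00 and -0.01 over all genes tested. In both cell types 5 of the 9 fitted differences lay below 0 (Fos, Junb, Egr1, Ier2 and Dusp1) and 4 above (Fosb, Jun, Atf3 and Hspa1a). At an unadjusted limma p under 0.05 the number was 4 in macrophages and 5 in monocytes, against 20.2% and 17.4% of all genes tested.

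Ier2 had 5440.1, 5437, 5709.5 and 5394 normalized reads in macrophages of C3-/- mice 6 to 9, against 6737, 7363, 7079 and 6761 in macrophages of wild-type mice 1 to 4. The groups did not overlap, as for 13.1% of all genes tested and 7.03% in this direction, and the C3-/- mean was 78.7% of the wild-type mean (log2 -0.24 ± 0.0373, limma adjusted p = 0.00289). The call held in all alternatives, with adjusted p from 0.00238 to 0.0258. In monocytes Ier2 had 12985, 11904, 14271 and 11373 normalized reads in C3-/- mice, against 17335, 14966, 19755 and 16658 in wild-type mice. These groups did not overlap either, as for 11.1% of all genes tested and 6.13% in this direction, and the C3-/- mean was 73.5% of the wild-type mean (log2 -0.33 ± 0.0741, limma adjusted p = 0.0337). The monocyte call was close to the threshold: it was lost with no filter (adjusted p = 0.0505) and without any 1 of 6 of the 8 libraries, those of C3-/- mice 6, 7 and 9 and wild-type mice 1, 3 and 4 (0.0506, 0.0731, 0.109, 0.0738, 0.0943 and 0.0719).

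Egr1 fell in monocytes to 56.6% of the wild-type mean (log2 -0.62 ± 0.106, limma adjusted p = 0.00827), and this call held in all alternatives, with adjusted p from 8.05e-06 to 0.0338. Its highest C3-/- monocyte library, at 14678 normalized reads, stayed below the lowest wild-type library, at 16917. In macrophages the groups did not overlap, at 3064 to 4029 in C3-/- mice against 4047 to 6233 in wild-type mice, but the gap between the nearest libraries was small. The mean was 70.2% of the wild-type mean (log2 -0.33 ± 0.0926) and did not pass (limma adjusted p = 0.0693). It passed without wild-type mouse 4, whose library was the lowest of its group (adjusted p = 0.0336). The authors' deposited table has it called as well (adjusted p = 0.0227). The difference between the knockout effects of the cell types was 0.29 (95% interval -0.04 to 0.61) and did not pass (limma adjusted p = 0.510).

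Dusp1 and Fos lay lower in C3-/- means without passing. Dusp1 averaged 50077 ± 9962 normalized reads in C3-/- macrophages and 65060.5 ± 6328 in wild-type macrophages, and 88816 ± 25640.2 in C3-/- monocytes and 128687 ± 19349.7 in wild-type monocytes (SD, n = 4 each). The C3-/- means were 77.0% and 69.0% of wild type (log2 -0.27 ± 0.0924 and -0.42 ± 0.142, limma adjusted p = 0.125 and 0.152). Fos averaged 64053 ± 11302 in C3-/- macrophages and 81069 ± 9793 in wild-type macrophages, and 89501 ± 17133 in C3-/- monocytes and 124455 ± 28882 in wild-type monocytes. The C3-/- means were 79.0% and 71.9% of wild type (log2 -0.25 ± 0.0893 and -0.34 ± 0.126, limma adjusted p = 0.155 and 0.183). In macrophages both passed when C3-/- mouse 8, the highest C3-/- library of both genes, was left out (adjusted p = 0.0442 for Fos and 0.0411 for Dusp1). In monocytes the authors' deposited table called both (adjusted p = 0.0482 for Fos and 0.0363 for Dusp1), and it called 4 of the members there, where it called 9.43% of 14087 genes, 5.63% lower. In macrophages it called 2 of the members, Egr1 and Ier2, where it called 6.07%, 3.33% lower.

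For Junb, Jun, Atf3 and Fosb the groups overlapped in both cell types and no difference passed. Junb had log2 differences of -0.07 (95% interval -0.26 to 0.12) in macrophages and -0.22 (-0.42 to -0.02) in monocytes, with limma adjusted p of 0.718 and 0.233. Jun had 0.13 (-0.33 to 0.59) and 0.03 (-0.23 to 0.30), Atf3 0.32 (-0.15 to 0.79) and 0.11 (-0.34 to 0.56), and Fosb 0.35 (-0.37 to 1.07) and 0.22 (-0.39 to 0.82). The adjusted p of these 3 genes ran from 0.450 for Atf3 in macrophages to 0.920 for Jun in monocytes.

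Hspa1a had the largest mean differences between genotypes and the least certain ones. Its C3-/- mean was 1.85-fold the wild-type mean in macrophages (log2 0.45, 95% interval -0.69 to 1.60, limma adjusted p = 0.678) and 2.57-fold in monocytes (0.84, -0.13 to 1.81, adjusted p = 0.368). In monocytes C3-/- mice 7, 8 and 9 stood above all wild-type mice, while C3-/- mouse 6, at 9633 normalized reads, lay beside the lowest wild-type library, at 9559. Without mouse 6 the monocyte difference was 1.23 and passed (limma adjusted p = 0.0309), and without mouse 8 it was 0.61 (adjusted p = 0.507). In macrophages mice 8 and 9 stood above all wild-type libraries and mouse 6 below all of them. The macrophage difference was 0.13 without C3-/- mouse 9, 0.29 without C3-/- mouse 8, 0.26 without wild-type mouse 1 and 0.80 without C3-/- mouse 6, and none of these passed (limma adjusted p from 0.337 to 0.912). In the authors' deposited table the adjusted p was 0.0991 in monocytes and 0.452 in macrophages.

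**Figure D3:**
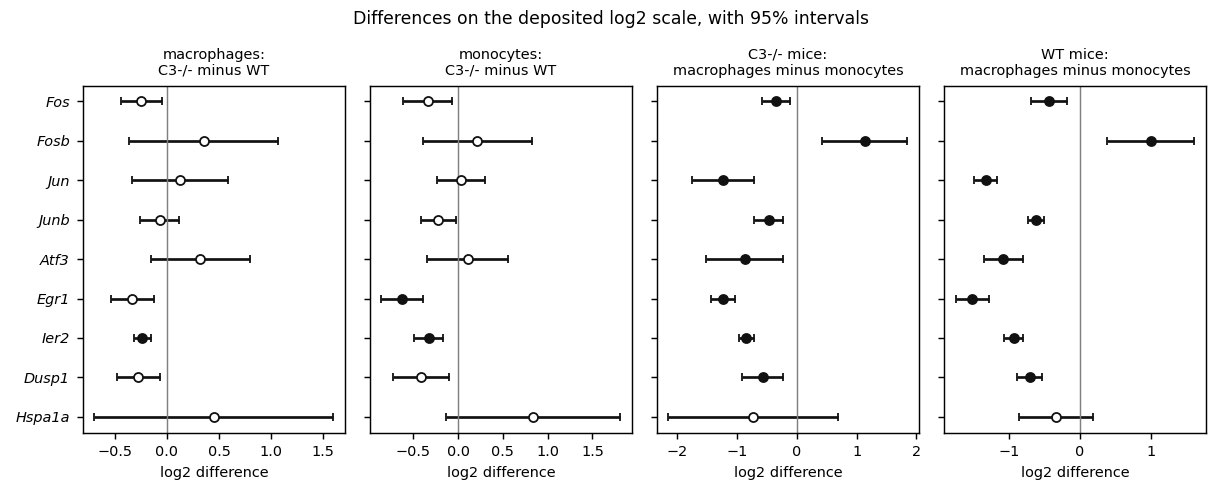
Log2 differences on the deposited scale with 95% intervals from limma for the 9 measured genes, C3-/- minus wild type (WT) in macrophages and in monocytes, then macrophages minus monocytes in C3-/- and in wild-type mice. Filled points passed a Benjamini-Hochberg adjusted p of 0.05, as Ier2 did in all 4 comparisons, and the intervals of Hspa1a span 0 in each of them. The fits shown do not pair the libraries of a mouse, and with the mouse as a block Hspa1a passed between cell types.

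The knockout effect in macrophages minus that in monocytes, fitted over all 16 libraries, passed for none of the 9 genes, where limma called 0.617% of 13134 genes. None of the 9 had an unadjusted p under 0.05 either, against 11.4% of all genes tested. The differences ran from -0.39 for Hspa1a (95% interval -1.79 to 1.01) to 0.29 for Egr1. The narrowest intervals were those of Ier2 (0.09, -0.09 to 0.26) and Junb (0.15, -0.13 to 0.43), while that of Fosb reached from -0.79 to 1.06. A call in one cell type and not in the other is therefore not shown to be a difference between cell types for any of the 9.

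The spread between mice of a group was itself uneven. The SD of the log2 values, taken as its median over the 9 genes, was 0.202 in C3-/- macrophages and 0.144 in wild-type macrophages, and 0.283 in C3-/- monocytes and 0.166 in wild-type monocytes. Over all genes tested the medians were 0.110, 0.0984, 0.134 and 0.122 in the same order of groups. Between 7 and 8 of the 9 genes exceeded the median gene in each group. Hspa1a had an SD of 0.88 in C3-/- macrophages, larger than that of 99.8% of genes, and 0.84 in C3-/- monocytes, larger than that of 99.8%. Its highest library was 7.01 times its lowest in C3-/- macrophages and 2.83 times in wild-type macrophages, and 5.76 times in C3-/- monocytes and 1.99 times in wild-type monocytes. Fosb was variable in every group, with SDs of 0.40 to 0.47 that exceeded those of 92.4% to 97.5% of genes. Ier2 lay at the other end: its SD of 0.03 in C3-/- macrophages was smaller than that of nearly all genes, of which 2.08% had a smaller one. The SDs of Jun and Atf3 were 0.41 and 0.41 in C3-/- macrophages and 0.14 and 0.17 in wild-type macrophages. Without mouse 1 the median SD of the 9 genes in wild-type macrophages was 0.0628. No test of a difference in spread was made.

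For most of the 9 genes the mouse with the lowest level was the same in both cell types. In C3-/- mice the animal with the lowest value in macrophages was also the lowest in monocytes for 8 of the 9 genes, against 27.6% of 13134 genes, and in wild-type mice for 7 of 9, against 33.7%. For the highest animal the numbers were 5 of 9, against 27.5%, and 4 of 9, against 32.2%. The 9 genes were read in the same libraries, so these counts are not 9 separate observations. Mouse 6 was the lowest C3-/- animal for 6 genes in macrophages and 5 in monocytes, and mouse 8 the highest for 6 and 8. Mouse 1 was the lowest wild-type animal for 8 genes in macrophages and 6 in monocytes, and mouse 3 the highest for 4 and 7. The mean deviation of the 9 genes from their group means was -0.33 in both libraries of mouse 6, and 0.26 in macrophages and 0.32 in monocytes of mouse 8. In mouse 1 it was -0.21 in macrophages and -0.19 in monocytes, and mice 3 and 4 were above 0 in both. The other 3 mice differed in sign between their libraries: the mean deviation was -0.05 in macrophages and 0.06 in monocytes of mouse 7, 0.11 and -0.05 in mouse 9, and 0.07 and -0.04 in mouse 2.

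Mouse 9 of the C3-/- group split the genes. Hspa1a stood 0.95 above its group mean in macrophages and 0.52 above in monocytes on the log2 scale, and Fosb 0.14 and 0.44 above. In the same animal Junb stood at -0.28 in macrophages and -0.26 in monocytes, Egr1 at -0.13 and -0.17, and Fos at -0.12 and -0.14. Mouse 9 was the lowest C3-/- animal in both cell types for Junb, Egr1 and Ier2. In mouse 6 Hspa1a stood at -1.04 in macrophages and -1.16 in monocytes while in its macrophages Egr1 stood at 0.02 and Junb at -0.01. The order of the C3-/- mice in Hspa1a was therefore not that in Junb or Egr1. The labels give no sorting order or sort date for single animals.

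**Figure D4:**
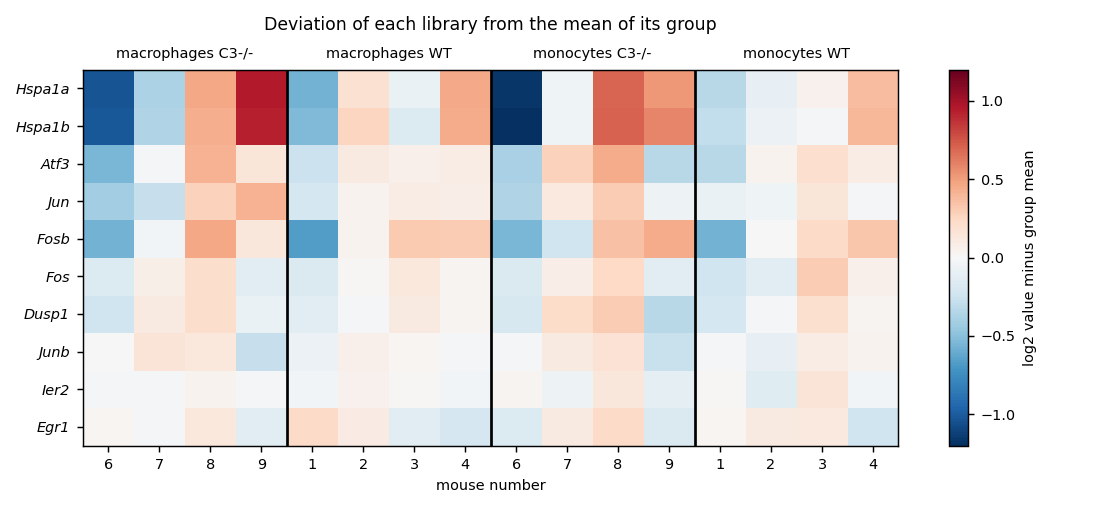
Log2 value of each library minus the mean of its group (colour scale, red above and blue below) for the 9 measured genes and Hspa1b in rows, with the 16 libraries in columns by group and mouse number. Both libraries of mice 6 and 1 are mostly blue and those of mouse 8 red, and in mouse 9 the Hsp70 genes are red while Junb and Egr1 are blue.

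The 5 genes outside the set whose deviations from their group means followed the mean deviation of the 9 most closely over the 16 libraries, among 10096 genes searched, were A930011G23Rik (Pearson r = 0.934), Klf6 (0.930), Rhob (0.925), Ensa (0.915) and Klf2 (0.912). Klf6 and Klf2 encode zinc finger factors and Rhob a small GTPase, and these 3 belong to a wider list of early response genes. These libraries share their mice in pairs, and the values are a description of likeness in these samples.

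A wider list of 41 immediate early and early response genes, of which 40 were tested, gave the same lean between cell types. In C3-/- mice 22 were lower in macrophages and 4 higher, and in wild-type mice 29 were lower and 1 higher, with median log2 differences of -0.55 and -0.64. Over all genes tested 29.6% were lower and 31.0% higher in C3-/- mice, and 31.7% each way in wild-type mice. Nr4a1, an orphan nuclear receptor of this class, averaged 5740.3 ± 775 normalized reads in wild-type macrophages and 35499 ± 5595 in wild-type monocytes (log2 -1.88 ± 0.0885, limma adjusted p = 3.78e-08). Fosl1, a Fos-related protein, averaged 34.7 ± 10.8 in C3-/- macrophages and 442 ± 148 in C3-/- monocytes (log2 -2.38 ± 0.174, adjusted p = 3.60e-07). Dusp6, the phosphatase for ERK, was lower in C3-/- macrophages, with 41.6% of the mean of C3-/- monocytes (adjusted p = 6.31e-08).

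Between genotypes 1 of these 40 genes was higher and 1 lower in C3-/- macrophages, where 2.57% of all genes were called higher and 3.13% lower. In C3-/- monocytes 1 was higher and 3 were lower, where 1.40% of all genes were called higher and 1.92% lower. In macrophages Nr4a2 rose to 1092 ± 202 normalized reads in C3-/- mice, against 519 ± 129 in wild-type mice (log2 0.76 ± 0.131, limma adjusted p = 0.0100), and Dusp6 fell to 7593 ± 190, against 10058 ± 425 (-0.28 ± 0.0375, adjusted p = 0.000926). In monocytes Sgk1, a kinase induced by serum and glucocorticoid, fell to 14751 ± 2475 in C3-/- mice, against 25459 ± 2946 in wild-type mice (log2 -0.57 ± 0.0920, adjusted p = 0.00536). Zfp36l1, which promotes decay of unstable mRNAs, fell to 60.4% of wild type (adjusted p = 0.0126), and Btg2, an antiproliferative gene, to 70.3% (adjusted p = 0.0476). Dusp2, a nuclear MAP kinase phosphatase, rose 1.74-fold (adjusted p = 0.0211). Both of these calls were fragile. That of Dusp2 was lost without C3-/- mouse 7, 8 or 9 (adjusted p up to 0.0714), and that of Btg2 in 9 alternatives, among them TMM scaling and leaving out C3-/- mouse 6, 8 or 9 or wild-type mouse 2, 3 or 4 (up to 0.141). The median of the 40 genes was 0.03 in macrophages and -0.15 in monocytes.

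Few genes of the heat shock list were lower in macrophages. Of 19 tested genes, Hspa1b among them, 5 were higher in macrophages and 1 lower in C3-/- mice, and 11 were higher and 1 lower in wild-type mice, where 31.0% and 31.7% of all genes were higher and 29.6% and 31.7% lower. Hspa1b, at 57.9% of the monocyte mean in C3-/- mice and 87.5% in wild-type mice, did not pass in either genotype without pairing (limma adjusted p = 0.423 and 0.544). With the mouse as a block it passed in C3-/- mice (log2 -0.60 ± 0.122, limma adjusted p = 0.00505). In wild-type mice it passed in no alternative (limma adjusted p at least 0.143). Hspd1, the mitochondrial chaperonin, averaged 4622 ± 671 normalized reads in C3-/- macrophages and 2234 ± 170 in C3-/- monocytes (log2 0.75 ± 0.0725, limma adjusted p = 2.37e-06). Its partner Hspe1 was 1.95-fold higher in wild-type macrophages than in wild-type monocytes (adjusted p = 1.76e-05). Between genotypes no gene of the list passed in macrophages, with a median of 0.09. In monocytes Bag3, a co-chaperone of Hsp70, rose to 3205 ± 1053 normalized reads in C3-/- mice, against 1454 ± 233 in wild-type mice (log2 0.77 ± 0.159, limma adjusted p = 0.0316). That call was lost without C3-/- mouse 7 or 9 or wild-type mouse 1, 2 or 3 (adjusted p up to 0.110).

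The list of ERK, JNK, p38 and SRF pathway genes held 26 tested genes. Of these, 12 were lower and 1 higher in macrophages of C3-/- mice, and 15 lower and 2 higher in wild-type mice. The shares over all genes were again 29.6% lower and 31.0% higher in C3-/- mice, and 31.7% each way in wild-type mice. Among them Map2k1, the kinase above ERK, had 57.4% of the monocyte mean in C3-/- mice (limma adjusted p = 5.69e-07), and Map2k3, the kinase above p38, 50.9% (adjusted p = 1.11e-07). Between genotypes 1 of 26 passed: Mapk3, which encodes ERK1, fell to 69.9% of wild type in C3-/- monocytes (adjusted p = 0.0206, and up to 0.0681 without C3-/- mouse 8 or 9 or wild-type mouse 3 or 4). Of 14 early inflammatory cytokine genes 6 were lower and 2 higher in macrophages of C3-/- mice, and 10 lower and 3 higher in wild-type mice. These counts stand beside the same shares over all genes. Il1b, which encodes interleukin 1 beta, averaged 27180.1 ± 6709 normalized reads in C3-/- macrophages and 65283 ± 10231 in C3-/- monocytes (log2 -0.92 ± 0.129, limma adjusted p = 0.000124). None of the 14 passed between genotypes, with medians of 0.01 in macrophages and -0.26 in monocytes.

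The integrated stress list, genes of the Atf4 pathway that can also induce Atf3, had 15 tested genes and no common direction: 6 were higher and 6 lower in macrophages of either genotype. Over all genes 60.5% were called in either direction in C3-/- mice and 63.4% in wild-type mice. Asns, asparagine synthetase, was 3.84-fold higher in C3-/- macrophages than in C3-/- monocytes (limma adjusted p = 3.21e-07), while Ddit4, an inhibitor of mTOR signalling, had 19.4% of the monocyte mean (adjusted p = 1.58e-05). Between genotypes Trib3 rose 1.27-fold in C3-/- macrophages (adjusted p = 0.0489) and Ddit4 fell to 60.9% of wild type in C3-/- monocytes (adjusted p = 0.0335). The Trib3 call was lost in 12 alternatives (adjusted p up to 0.137), among them each left-out library but that of wild-type mouse 3. That of Ddit4 was lost with no filter and without C3-/- mouse 6 or wild-type mouse 2, 3 or 4 (up to 0.0993).

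Markers of other cells moved with some of these comparisons. Neutrophil markers summed to 1556 to 1942 normalized reads in C3-/- macrophages and 1734 to 2108 in wild-type macrophages, and to 7066 to 16644 in C3-/- monocytes and 8186 to 12196 in wild-type monocytes, and 6 of 6 tested were lower in macrophages of each genotype. Fibroblast and sarcoma markers summed to 172 to 932 in C3-/- macrophages and 821 to 2240.5 in wild-type macrophages, and to 790.2 to 5774 in C3-/- monocytes and 3385 to 6599 in wild-type monocytes. Hemoglobin and other red cell genes were lower in C3-/- macrophages for 4 of 4 tested, at 145 to 242 against 428 to 1272 in wild-type macrophages, and 0 of 4 passed between genotypes in monocytes, at 309 to 1274 in C3-/- mice against 1430.2 to 3569 in wild-type mice. The same 4 were lower in macrophages than in monocytes of each genotype. Endothelial markers summed to 845 to 989 in C3-/- macrophages and 290 to 467 in wild-type macrophages. In monocytes they summed to 593 to 686 in C3-/- mice and 420 to 626 in wild-type mice. Of 3 tested, 1 was higher in C3-/- mice in each cell type. Most of the macrophage sum was Kdr, at 756 to 888 in C3-/- mice and 211 to 404 in wild-type mice. Kdr had 289 to 410 in C3-/- monocytes and 85.03 to 190 in wild-type monocytes. Pecam1 and Cdh5 overlapped between genotypes in each cell type, and Tek had at most 2.76 normalized reads. Of 5 dendritic cell markers tested between genotypes, none passed in macrophages, and in monocytes 1 was higher and 1 lower in C3-/- mice. Cd209a had 128 to 790 normalized reads in C3-/- monocytes against 2.57 to 15.03 in wild-type monocytes. Itgax went the other way, at 1926 to 3368 in C3-/- monocytes against 3564 to 4781 in wild-type monocytes. Of the macrophage markers 3 of 9 were lower in C3-/- macrophages, the list summing to 655860 to 784985 against 818337 to 959323. Ly6g, which defines neutrophils, was at 0 in all 4 C3-/- macrophage libraries and at most 3.71 normalized reads elsewhere. Other neutrophil genes were not so low in monocytes, where 1 of 7 tested was higher in C3-/- mice and 0 were lower. Retnlg had 151 to 431 normalized reads in C3-/- monocytes against 6.42 to 69.8 in wild-type monocytes. Ngp ran from 0 to 4484 and Ltf from 5.64 to 1733 in C3-/- monocytes, against at most 3.71 and 17.4 in wild-type monocytes. S100a8 went the other way, at 27.6 to 856 in C3-/- monocytes against 1289 to 2560 in wild-type monocytes. In macrophages Csf3r held most of the sum, at 1495 to 1906 in C3-/- mice and 1684 to 2058 in wild-type mice. Of the fibroblast markers, Lum was at 0 in 4 of 4 C3-/- and 3 of 4 wild-type macrophage libraries, while Col3a1 was detected in each library, at 106 to 632 normalized reads in C3-/- macrophages and 493 to 1404 in wild-type macrophages. Mitochondrial genes took 0.244% to 0.295% of reads in C3-/- macrophages and 0.240% to 0.293% in wild-type macrophages, and 0.138% to 0.224% in C3-/- monocytes and 0.139% to 0.197% in wild-type monocytes, so the cell types did not overlap. Among monocytes the library with the highest share of the 10 genes had the lowest mitochondrial share of its genotype (mouse 8 at 0.138% and mouse 3 at 0.139%). The library with the lowest share of the 10 genes had the highest (mouse 6 at 0.224% and mouse 1 at 0.197%). Macrophages did not follow this throughout. C3-/- mouse 6 had the lowest share of the 10 genes and also the lowest mitochondrial share, at 0.244%. In wild-type macrophages mouse 3 had the highest share of the 10 genes and the lowest mitochondrial share, at 0.240%. Mouse 1 had the lowest share of the 10 genes there, but mouse 4 the highest mitochondrial share (0.280% and 0.293%). The part of these markers and of the mitochondrial share in the differences of the immediate early genes was not tested.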

How the data were processed

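RNA was measured in 16 libraries from 8 mice, made with the SMART-Seq v4 kit, which does not mark strand. The submitters' processing notes name the build GRCm38 and the tools STAR 2.7.2b, bcl2fastq 2.19.0.316 and DESeq2, without the annotation. The deposited matrix holds log2 values whose transform has no name in the header, and 0 of its columns were samples of another series. The authors also deposited wild type against knockout tables with, per the file headers, a base mean (a signal, reads over size factors), log2 fold changes, a test statistic (a score), and p-values. The signs of the deposited fold changes were turned to knockout minus wild type.

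The values followed a regularized logarithm. Inverting it gave reads within 0.05 of a whole number for 81.6% of values in the 20443 genes whose base mean reached 1, and for 99.7% of those genes the mean came within 1% of the deposited one. The inversion was used for levels and not for the main test. limma 3.58.1 (R 4.3.3) with trend and robust estimation was fitted to the deposited log2 values of all genes whose linear value reached 10 in at least 4 libraries of the comparison, with Benjamini-Hochberg adjustment, and a gene was called at an adjusted p under 0.05. The design had named a count test in case the files held counts. The fit was tested on simulated data with known log2 changes of 1 or more, without pairs of libraries and with the same spread in all groups. That test does not cover smaller differences, paired libraries or groups that differ in spread.

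Mouse numbers in the titles pair the macrophage and monocyte libraries of an animal. Deviations from group means correlated at 0.05 to 0.21 (C3-/-) and 0.03 to 0.42 (wild type) within a mouse, and at -0.23 to 0.14 and -0.32 to 0.19 between mice. The members and lists were chosen with earlier results of these data known. All members are described, and of other lists at most the 4 called genes with the smallest adjusted p in a comparison could be named. Of genes with a mean linear value of at least 50, the 5 most alike were named too. Alternatives were no filter, a filter at 50, TMM scaling, voom on recovered reads, all 16 libraries in 1 fit, the mouse as a block, the authors' table and leaving out each library. Alternatives for the spread were added after seeing the data. Positions are from the GENCODE M21 annotation of GRCm38 and sequences from RefSeq.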

Additional observations from a re-analysis of the deposited data

Results flagged for a closer look

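In 36 sets of 4 values (9 genes in 4 groups), 3 single values stood far from the other 3 of their set, where chance gives about 1 set in 20. Jun in macrophages of wild-type mouse 1 was the lowest, at 14500.5 normalized reads against 19023 to 19885 in mice 2 to 4, a gap of 0.858 of the group's log2 range. Atf3 in the same library was also the lowest, at 11078 against 15449 to 16188, a gap of 0.875 of the range. Ier2 in macrophages of C3-/- mouse 8 was the highest, at 5709.5 against 5394 to 5440.1, a gap of 0.848 of a narrow range. Mouse 1 was the lowest wild-type animal for 8 of the 9 genes in macrophages and mouse 8 the highest C3-/- animal for 6. The macrophage libraries of mice 1 and 8 were kept in all main values.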

How the results depend on the processing

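The calls of members moved with some choices. In macrophages 1 member was called between genotypes, and 2 in the authors' deposited table. In monocytes 2 were called, 1 with no filter and 4 in the authors' table. In monocytes 427 genes were called, against 1329 in the authors' table and 981 when 1 fit held all 16 libraries. For the difference of knockout effects 81 genes were called, and 139 with the replicate block. The block also gave the calls of Hspa1a between cell types and changed no other call of a member. The median member SD in wild-type macrophages was 0.216 on log2 normalized reads, against 0.144 on the deposited scale. TMM scaling and voom changed no call of a member.

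Leaving out each library gave 458 to 656 genes and 1 to 3 members called in macrophages, 237 to 459 genes and 1 to 2 members in monocytes, 7051 to 7356 genes and 7 to 8 members between cell types in C3-/- mice, 7351 to 7782 genes and 8 members in wild-type mice, and 48 to 125 genes and 0 members for the difference of effects. Counts moved by over 1.5 times without wild-type macrophages of mouse 2 (458), without monocytes of C3-/- mouse 8 (237) or 9 (243) or wild-type mouse 2 (282), 3 (263) or 4 (280), and, for the difference of effects, without wild-type macrophages of mouse 3 (48) or C3-/- monocytes of mouse 7 (125). Median member SDs ran from 0.217 to 0.237 in C3-/- macrophages, 0.0628 to 0.172 in wild-type macrophages, 0.236 to 0.332 in C3-/- monocytes and 0.151 to 0.200 in wild-type monocytes.

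Differences that were near 0 and not called changed sign in 13 cases, all with 1 library left out. Over the left-out libraries the macrophage differences between genotypes ran from -0.010 (without C3-/- mouse 9) to 0.27 for Jun and from -0.12 to 0.023 (without C3-/- mouse 9) for Junb. In monocytes they ran from -0.066 (without C3-/- mouse 8) to 0.15 for Jun and from -0.038 (without C3-/- mouse 8) to 0.24 for Atf3, and Jun without C3-/- mouse 7 (-0.0050) and Atf3 without wild-type mouse 1 (-0.0030) were also below 0. The difference of effects ran from -0.0077 (without wild-type monocytes of mouse 3) to 0.17 for Fos, from -0.087 (without wild-type macrophages of mouse 1) to 0.32 for Fosb and from -0.045 (without C3-/- macrophages of mouse 9) to 0.23 for Jun. It was also below 0 for Fosb and Jun without C3-/- macrophages of mouse 8 (-0.021 and -0.00061) or C3-/- monocytes of mouse 6 (-0.048 and -0.027). Of the remaining values of single members under the alternatives, 658 kept their direction and side of the threshold, 13 lost and 9 gained a call. The causes were not tested. With 4 mice a group, the intervals of Hspa1a and Fosb between genotypes were wide and held 0.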
